A study of Mus musculus with 25 samples.

Results

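The genes described are 27 genes of cholesterol and fatty acid synthesis, taken by symbol from a fixed list out of the 24015 symbols in each of the deposited expression tables. They comprise 18 enzymes of cholesterol synthesis, 5 regulators of the SREBP transcription factors, the sterol carrier Stard4 and 3 enzymes of fatty acid synthesis. All 27 had a row in both tables. Hmgcs1, which makes HMG-CoA, was listed at 0 in every library of both tables and could not be tested, so 26 genes carried values. A transcript that was absent and one that was not counted cannot be told apart from such zeros, and no level of Hmgcs1 is read from them. Not every enzyme of the pathway is among the 27.

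The study sequenced RNA from mouse basal cell carcinomas, a skin cancer driven by Hedgehog signalling, and from ASZ001, a cell line derived from such a tumour. The tumours arose in C57BL6 mice that were Ptch+/-, carried K14 Cre-ER and had the alleles p53 fl/fl. Such mice have 1 disrupted copy of the Hedgehog receptor Ptch and a tamoxifen-dependent Cre that the keratin 14 promoter restricts to basal epithelium, so recombination of the floxed p53 alleles follows that promoter. All tumour-bearing mice, those of the sensitive group included, were given an inhibitor of Smo, the Hedgehog signal transducer, by mouth. The labels name 4 tumour libraries sensitive (S1 to S4 here) and 4 resistant (R1 to R4). ASZ001 cells, which the labels call resistant, received vehicle, the Smo inhibitor vismodegib, or CCG-1423, an inhibitor of transcription driven by MRTF and SRF, with 3 libraries each. All cell results come from this 1 line. The sources used here give no dose, treatment time or age, and do not say that libraries of a group came from different animals or dishes. The p-values therefore reflect only how these libraries vary, and that variation may be technical.

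Cells make cholesterol from acetyl-CoA through mevalonate, farnesyl diphosphate, squalene and lanosterol, and make fatty acids from cytosolic acetyl-CoA through malonyl-CoA. The enzymes of both routes are switched on by the SREBP factors, which SCAP escorts out of the endoplasmic reticulum when sterols are low and which the INSIG proteins hold back when sterols are high. In skin, these routes supply the barrier lipids of the epidermis and the lipids of sebum, and sterols also act on Smo itself.

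The promoters of 23 of the 27 genes were found in the RefSeq promoter table for the mouse build GRCm38.p6, as the 250 bases before and 50 bases after each listed start. Fdps, Fdft1, Sqle and Stard4 had no entry. The windows printed here belong to the 3 matched genes with the largest fall under CCG-1423, described further on, and to 2 genes that rose under it. Each runs 5′ to 3′ along the gene's strand and ends at the base before the start. Capitals mark the motif CCAAT, which NF-Y binds, read on either strand, where it appears as CCAAT or as its reverse complement.
Mvk, chr5:114444069-114444268, plus strand: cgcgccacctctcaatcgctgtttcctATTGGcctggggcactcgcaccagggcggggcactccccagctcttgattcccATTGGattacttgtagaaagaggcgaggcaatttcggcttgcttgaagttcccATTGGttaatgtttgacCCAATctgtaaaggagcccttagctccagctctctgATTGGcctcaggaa
Nsdhl, chrX:72918401-72918520, plus strand: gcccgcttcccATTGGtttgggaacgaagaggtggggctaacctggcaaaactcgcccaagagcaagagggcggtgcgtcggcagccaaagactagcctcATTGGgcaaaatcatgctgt
Idi1, chr13:8885486-8885605, plus strand: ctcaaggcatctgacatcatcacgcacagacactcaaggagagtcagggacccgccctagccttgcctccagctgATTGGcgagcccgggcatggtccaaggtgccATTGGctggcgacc
Dhcr7, chr7:143830094-143830213, plus strand: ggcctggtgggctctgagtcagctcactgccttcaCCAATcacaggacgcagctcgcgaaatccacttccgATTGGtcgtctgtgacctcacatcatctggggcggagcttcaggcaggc
Fasn, chr11:120824548-120824667, minus strand: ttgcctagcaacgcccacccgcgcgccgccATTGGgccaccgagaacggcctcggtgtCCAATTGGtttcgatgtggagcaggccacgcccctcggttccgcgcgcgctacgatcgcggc

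The Mvk window of 200 bases held 5 matches, and the windows of 120 bases held 2 for Nsdhl, 2 for Idi1, 2 for Dhcr7 and 3 for Fasn, where a forward and a reverse match overlap in 1 palindrome. The Dhcr7 window lies before 1 of its 3 listed starts, the only one of them whose promoter held CCAAT. Over the full promoters, CCAAT occurred in 20 of the 23 matched genes (87%), against 41.1% of all 27025 symbols in the table and 43.3% of the 9593 symbols that were also tested in the cells. The GC box GGGCGG, on either strand, also occurred in 20 of 23 (87%), against 38.2% of all symbols and 69.7% of the tested ones. The core of the sterol regulatory element, TCACNCCAC on either strand, occurred in Hmgcs1 alone (4.35% of 23, against 1.44% of all symbols). Only this exact form was searched, so other forms of the element may be present in the remaining promoters. CCAAT was present in the windows of genes that fell and of genes that rose under CCG-1423. A match is a description of the letters in the window and says nothing of whether a factor bound there.

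One tumour library went against its label. Across genes, S4 correlated with the resistant tumours at a mean r of 0.952 and with S1 to S3 at 0.828. The summed level of the Y-linked genes Kdm5d, Ddx3y, Eif2s3y and Uty ran from 1965 to 2507 normalized counts over S1 to S3 and was 0 in the other 5. Results in the tumours are therefore given with all 8 libraries and without S4, and in the second case sex and response group cannot be told apart. S4 was left out for its expression in these same data, so p-values without it may be too small. Leaving it out moved the calls over all genes from 5 higher and 12 lower to 3183 and 3001. A wrong label and a sensitive tumour that resembles resistant ones cannot be told apart. Library depth, as reads at genes, ran from 8111252 to 14161398 for the sensitive group, from 17537094 to 20014426 for the resistant group and from 30455530 to 44017757 for the cells. Basal epithelial markers were present in every library, with a summed level over 6 genes, Krt5 and Krt14 foremost, from 32491 to 214790 normalized counts in the tumours and from 227047 to 1209530 in the cells. The normalized count used throughout is a read count divided by 1 size factor per library, on a linear scale, and it compares libraries of 1 table, not genes of different length.

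In the comparison of resistant with sensitive tumours, none of the 26 tested genes passed an adjusted p of 0.05 when all 8 libraries were kept. By limma 0.0332% of all 15076 tested genes were called higher and 0.0796% lower, so hardly any gene passed by that test. Of the 26 genes, 3 (11.5%) had an unadjusted p below 0.05, a smaller share than the 25.1% of all tested genes, namely Sqle (log2 fold change 1.21 ± 0.51, SE), Sc5d (1.28 ± 0.38) and Insig2 (-0.92 ± 0.33). By edgeR 0 passed, as did 0 of all genes. By DESeq2 1 passed, Insig2, as lower, beside 3.42% of all genes higher and 7.41% lower by that tool, so 1 of 26 is no more than the background. The median log2 fold change of the 26 was 0.21, beside 0.03 over all tested genes. None had resistant and sensitive values that did not overlap, beside 3.9% of all genes apart on the higher side and 4% on the lower.

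Without S4, 9 of the 17 tested enzymes of cholesterol synthesis were higher in the resistant tumours, while the enzymes of fatty acid synthesis did not pass. Of the 26 genes 10 rose, 1 fell and 15 did not pass, beside a background of 20.6% of 15479 genes higher and 19.4% lower. The 10 are 38.5% of the genes tested here, and the median log2 fold change was 0.33, beside 0.02 over all genes. By role, 0 of the 17 cholesterol enzymes fell, 1 of 5 SREBP regulators rose and 1 fell, and 0 of 3 fatty acid enzymes passed. A total of 6 rose by at least 2-fold (Mvd, Idi1, Fdps, Fdft1, Sqle and Sc5d), beside 12.3% of all genes, and 1, Insig2, fell by as much, beside 12.4%. Reads scaled to their total gave 10 higher and 2 lower, with Acly added, and moved the split over all genes from 3183 higher and 3001 lower to 2510 and 3715 (2585 and 3617 with the ribosomal RNA precursor Rn45s left out of the total) and the median over all genes to -0.13. The count of 10 dropped to 6 when S2 or S3 was also left out, where Idi1, Lss, Msmo1 and Insig1 no longer passed, and to 9 without S1, where Msmo1 did not (adjusted p over all alternatives up to 0.0684, 0.0558, 0.063 and 0.0599).

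**Figure D1:**
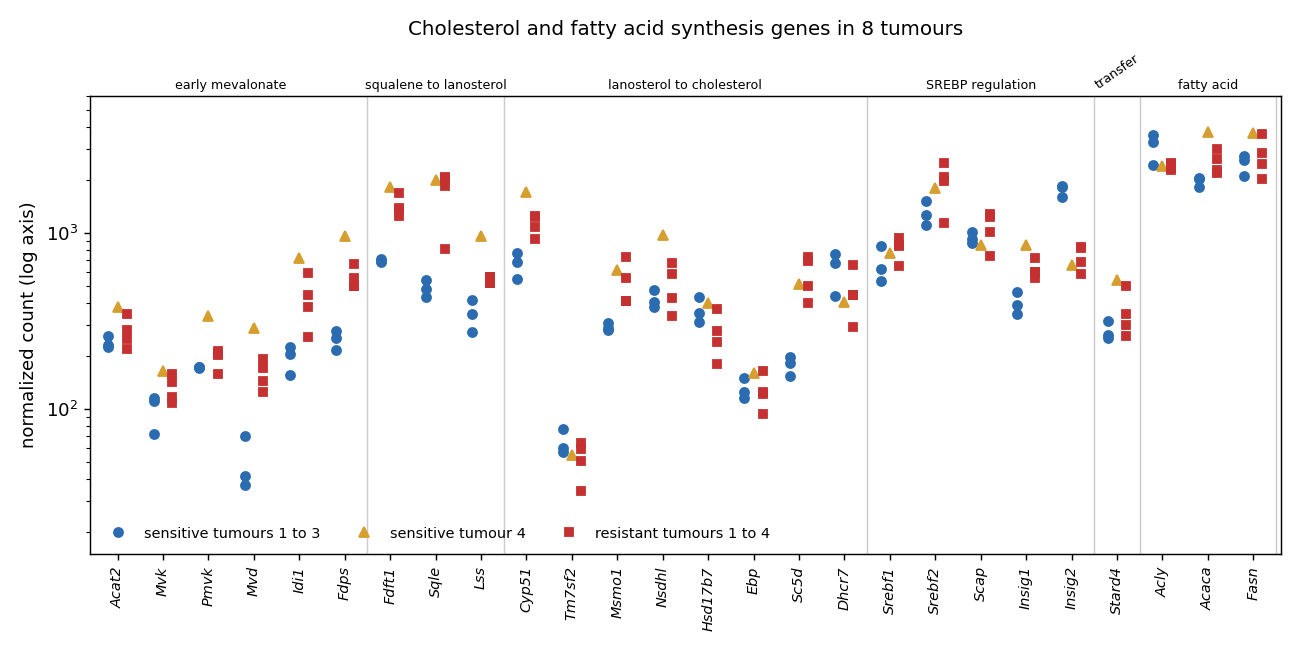
Normalized counts (log axis) of the 26 genes in each of the 8 tumours, ordered by role, with 1 point per library. S4 (triangles) lay above all of S1 to S3 (circles) for 19 genes and above all resistant tumours (squares) for 15. The same counts were not made over all genes.

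Among the enzymes from acetyl-CoA to farnesyl diphosphate, Mvd, Idi1 and Fdps rose without S4. Mvd, the decarboxylase that makes isopentenyl diphosphate, had 70.2, 36.7 and 41.4 normalized counts in S1 to S3, 289 in S4 and 171, 124, 143 and 191 in the resistant tumours. Every resistant value lay above those of S1 to S3 and below S4. Without S4 the ratio of means was 3.18 and the log2 fold change 1.69 ± 0.28 (adjusted p = 0.00244), against 1.04 ± 0.59 with all 8 tumours (adjusted p = 0.28).

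Idi1, the isomerase that makes dimethylallyl diphosphate, had 226, 205 and 156 in S1 to S3, 725 in S4 and 594, 258, 442 and 377 in the resistant tumours. The lowest resistant value lay close above the highest of S1 to S3. Without S4 the log2 fold change was 1.05 ± 0.28 (adjusted p = 0.0188), against 0.57 ± 0.47 with all 8 tumours (adjusted p = 0.44). Fdps, which joins these units to farnesyl diphosphate, the branch point to sterols and isoprenoids, had 218, 276 and 252, then 967, and 669.8, 499.9, 555 and 502. The groups were apart without S4, which was the highest of the 8, and the log2 fold change was 1.16 ± 0.17 (adjusted p = 0.00132). With all 8 tumours the estimate for Fdps was 0.67 ± 0.43 (adjusted p = 0.337). Mevalonate kinase, Mvk, had 111, 72.1 and 116 in S1 to S3, 163 in S4 and 143, 117, 159 and 107 in the resistant tumours, which overlap, and with a log2 fold change of 0.41 ± 0.25 it did not pass (adjusted p = 0.218). The thiolase Acat2 ranged from 219 to 379 over the 8 tumours (0.18 ± 0.19) and phosphomevalonate kinase Pmvk from 157 to 337 (0.17 ± 0.18), and neither passed. Acat2 has a near-identical copy, Acat3, and the reads of the pair may have been split between them.

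All 3 enzymes from farnesyl diphosphate to lanosterol rose without S4. Fdft1, the squalene synthase that commits farnesyl diphosphate to sterols, had 693, 684 and 715 in S1 to S3, 1822 in S4 and 1694, 1398, 1362 and 1249.5 in the resistant tumours. The resistant values stood well above the tight cluster of S1 to S3, with a log2 fold change of 1.02 ± 0.14 (adjusted p = 0.00101).

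Sqle, the squalene epoxidase, had 541, 432 and 480.2 in S1 to S3, 2013 in S4 and 1868, 2099, 2054 and 809 in the resistant tumours. R4 lay far below the other 3 resistant tumours yet above S1 to S3. The log2 fold change was 1.73 ± 0.32, a ratio of means of 3.52 and the largest rise among the 26 (adjusted p = 0.00391). Lss, which cyclizes the epoxide to lanosterol, had 414, 346 and 273, then 968, and 565, 517, 518 and 562, with a log2 fold change of 0.67 ± 0.17 (adjusted p = 0.015). Its resistant values were close together, between S1 to S3 and the much higher S4.

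Of the 8 enzymes from lanosterol to cholesterol 3 rose without S4, and the other 5 did not pass. Cyp51, the lanosterol demethylase, had 768, 689 and 545 in S1 to S3, 1715 in S4 and 1242, 1252, 1083 and 922 in the resistant tumours. The groups were apart again without S4, which was highest, and the log2 fold change was 0.76 ± 0.17 (adjusted p = 0.00974). With all 8 tumours the estimate for Cyp51 was 0.41 ± 0.33 (adjusted p = 0.425). Msmo1, which oxidizes the C4 methyl groups, had 281, 307 and 288, then 615, and 734, 555, 411 and 413, a log2 fold change of 0.81 ± 0.22 (adjusted p = 0.0198). With all 8 tumours the estimate for Msmo1 was 0.54 ± 0.30 (adjusted p = 0.276). Here S4 lay within the resistant range.

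Sc5d, the sterol C5 desaturase near the end of the route, had 198, 154 and 182 in S1 to S3, 511 in S4 and 692, 398, 727 and 501 in the resistant tumours. Every resistant value was more than the highest of S1 to S3, and the log2 fold change was 1.66 ± 0.24 (adjusted p = 0.00118). 

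The 5 enzymes of this stretch that did not pass had overlapping groups. Nsdhl, the C4 decarboxylating dehydrogenase, had 478, 407 and 378 in S1 to S3, 977 in S4 and 677, 427, 588 and 336 in the resistant tumours (0.22 ± 0.25). Dhcr7, the reductase that completes cholesterol, had 437, 678 and 765, then 403, and 658, 447, 446 and 292 (-0.46 ± 0.29). The estimates were also negative for Hsd17b7, the ketoreductase that works with Nsdhl, which ranged from 179 to 435 over the 8 tumours (-0.49 ± 0.25), for the C14 reductase Tm7sf2, from 34.1 to 77.1 (-0.33 ± 0.29), and, near 0, for the sterol isomerase Ebp, from 93.6 to 164 (-0.06 ± 0.24).

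The INSIG pair moved in opposite directions without S4. Insig1, which retains the SCAP and SREBP complex and is itself an SREBP target, had 462, 391 and 344 in S1 to S3, 857 in S4 and 603, 602, 726 and 559 in the resistant tumours, a log2 fold change of 0.64 ± 0.16 (adjusted p = 0.0142). Insig2, the second retention protein, had 1601, 1849 and 1843, then 659, and 831, 689.6, 587 and 822, so that it was high in S1 to S3 and low in the other 5. Its log2 fold change was -1.28 ± 0.16, 2.41-fold lower by the means (adjusted p = 0.0007). The ratio of Insig2 to Insig1 was 3.47, 4.73 and 5.35 in S1 to S3, 0.768 in S4 and 1.38, 1.15, 0.808 and 1.47 in the resistant tumours. Resistant tumours and S4 thus lay far below the range of S1 to S3.

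The transcription factor genes did not pass in either form of the tumour comparison. Srebf2, the factor that mainly drives cholesterol genes, had 1118, 1273 and 1532 in S1 to S3, 1815 in S4 and 2082, 1976, 2499 and 1148 in the resistant tumours, and R4 fell within the sensitive range. Its log2 fold change without S4 was 0.52 ± 0.26 (adjusted p = 0.141), and it passed when R4 was left out too (0.75, adjusted p = 0.0105). Srebf1, which leans to fatty acid genes, had 0.31 ± 0.20 (adjusted p = 0.244) and the escort Scap 0.16 ± 0.20 (adjusted p = 0.566). The ratio of Srebf2 to Srebf1 ran from 1.82 to 2.35 in the sensitive tumours and from 1.77 to 2.97 in the resistant ones, which overlap. Stard4, a carrier of cholesterol between membranes, had 0.30 ± 0.24 (adjusted p = 0.338).

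The 3 fatty acid enzymes did not pass. Acaca, which makes malonyl-CoA, had 1822, 2028 and 2050.1 in S1 to S3, 3777 in S4 and 3003, 2275, 2651 and 2208 in the resistant tumours. Its groups did not overlap without S4, as in 24.3% of all genes on the higher side, and the log2 fold change was 0.36 ± 0.15 (adjusted p = 0.0833). Acly, which cuts citrate to cytosolic acetyl-CoA, had 2456, 3312 and 3623, then 2397, and 2461, 2283, 2512 and 2347, a log2 fold change of -0.36 ± 0.16 (adjusted p = 0.0926). S1 lay inside the resistant range, and Acly passed as lower when that library was left out and under total-read scaling or quantile normalization, with an adjusted p as low as 0.0245 (up to 0.276 over all alternatives). Fasn, the fatty acid synthase, had 2123, 2608 and 2734 in S1 to S3, 3738 in S4 and 2844, 2478, 3678 and 2035 in the resistant tumours. These overlap, with a log2 fold change of 0.12 ± 0.21 (adjusted p = 0.661).

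**Figure D2:**
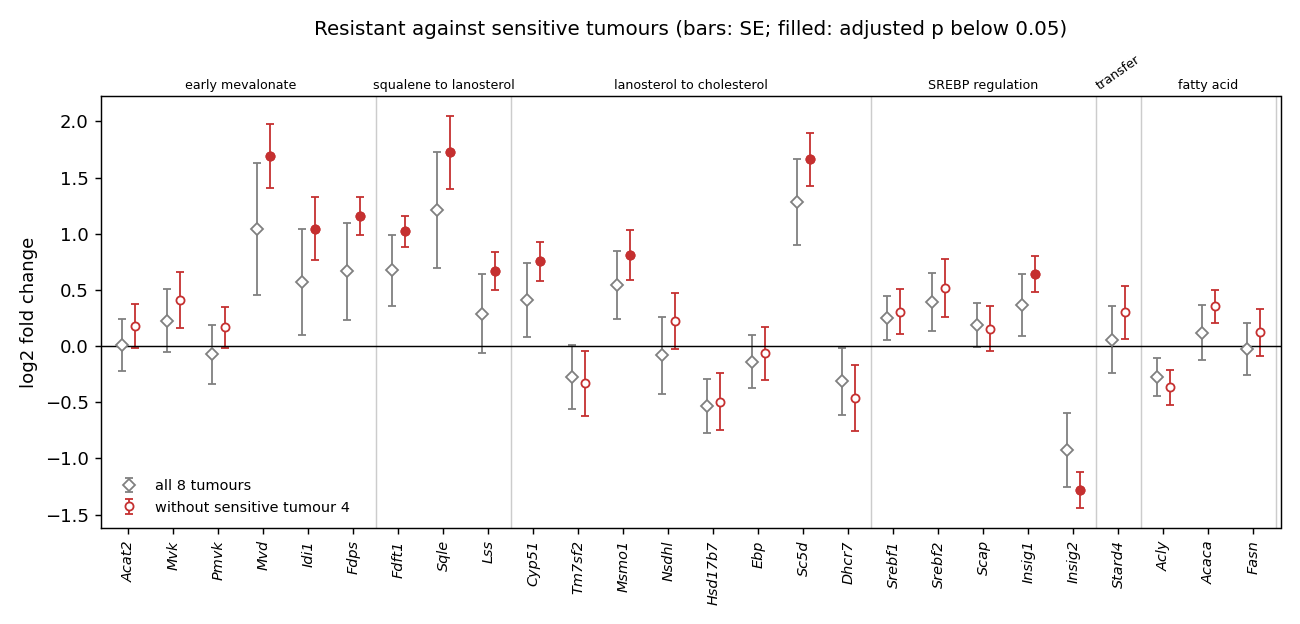
Log2 fold change of resistant against sensitive tumours for each of the 26 genes, with all 8 tumours (diamonds) and without S4 (circles), and bars of 1 SE. Filled points have an adjusted p below 0.05: 0 with all 8 tumours, and 10 higher and 1 lower without S4.

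S4 had the highest value of the 8 tumours for 14 of the 26 genes. It lay above all of S1 to S3 for 19 genes, below all of them for 5 and within their range for 2. It lay above every resistant tumour for 15 and within the resistant range for 11, and below all of them for 0. These counts were not made over all genes, across which S4 also stood apart from S1 to S3. They are therefore not read as particular to these genes. For all 10 genes that rose without S4, S4 exceeded S1 to S3, and for 7 of these 10 it exceeded every resistant tumour. The 10 were picked as lower in S1 to S3 than in the resistant tumours, which S4 resembled across genes. That S4 lay above S1 to S3 for them therefore follows in large part from that choice.

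Marker genes of other cell types and of proliferation are given for the same tumours, with counts to be read beside the 20.6% of all genes higher and 19.4% lower without S4. The summed level of 8 proliferation genes was 2181 to 3926 normalized counts in S1 to S3, 23816 in S4 and 9628 to 23799 in the resistant tumours, and all 8 rose without S4. Leukocyte markers summed to 3504 to 6479, 21720 and 8119 to 20123 in the same order, with 2 of 7 tested higher (28.6%), near the background. Basal epithelial markers summed to 154344 to 214790, 91516 and 32491 to 86690, with 5 of 6 lower. Sebaceous gland markers, led by Scd1, Scd3 and Cidea, summed to 1844 to 2004, 2312 and 1077 to 5815, with 3 of 6 tested lower and 0 higher. Adipocyte markers, led by Lpl, Fabp4 and Plin4, summed to 874 to 1133, 385 and 493 to 746, with 2 of 3 tested lower and 1 higher. Differentiated keratinocyte markers summed to 3735 to 5086, 2102 and 559 to 5244, with 5 of 8 tested lower and 1 higher. Fibroblast markers summed to 64299 to 136005, 94779 and 77400 to 117394, with 2 of 6 lower. In bulk tissue, fewer cells of a type and less RNA per cell cannot be told apart, and the part of these markers in the results was not tested.

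In ASZ001 cells given CCG-1423, most of these genes stood lower than with vehicle. The comparison addresses an inhibitor of MRTF and SRF as applied, and whether MRTF and SRF were inhibited was not tested here. Of the 26 tested genes 21 fell, 3 rose and 2 did not pass. Over all 12775 tested genes 42.6% fell and 42.8% rose, so 1 direction held 80.8% of these genes and 42.6% of the background. The median log2 fold change was -0.42, beside 0.00 over all genes. Of the 17 cholesterol enzymes 16 fell, and Dhcr7 rose. A fall of at least 2-fold was seen in 4 genes (Mvk, Nsdhl, Idi1 and Acat2), or 15.4%, which is near the 15.3% of all genes, and 0 genes rose by as much, beside 11.7% of all genes. A total of 20 lower and 3 higher genes had groups that did not overlap, beside 42.8% and 43% of all genes.

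**Figure D3:**
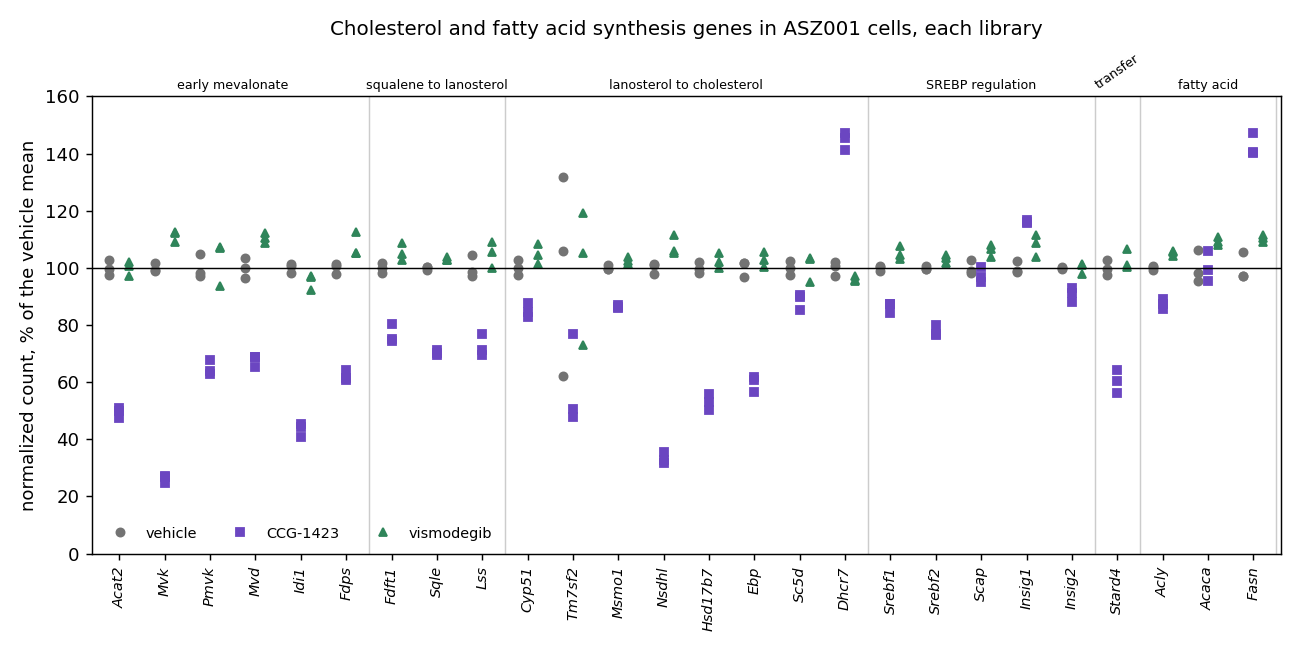
Normalized count of each of the 26 genes in each ASZ001 library, as a percentage of the vehicle mean of that gene, with 3 points per treatment. CCG-1423 points (squares) lie below all vehicle points for 20 genes and above them for Dhcr7, Insig1 and Fasn, while vismodegib points (triangles) lie near the line at 100%, with a wide scatter only for Tm7sf2, which rests on few reads.

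In the mevalonate steps all 6 tested genes fell with CCG-1423, Mvk by the most. Mvk, which phosphorylates mevalonate, had 2328, 2397 and 2339 normalized counts with vehicle, 627, 638 and 579 with CCG-1423 and 2565, 2645 and 2642 with vismodegib. The CCG-1423 libraries were all far below the others, 3.83-fold lower than vehicle by the means, with a log2 fold change of -1.94 ± 0.04 (adjusted p = 1.2e-15). Of all tested genes 4.98% had an equal or lower log2 fold change. The promoter of Mvk is the one printed with 5 CCAAT matches.

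Idi1 had 5708, 5886 and 5843 with vehicle and 2634, 2379 and 2579 with CCG-1423, and Acat2 had 1359, 1329 and 1403 and 679, 696 and 646. In both, every CCG-1423 value lay far below every vehicle value, with log2 fold changes of -1.20 ± 0.04 and -1.02 ± 0.04 (adjusted p = 9.7e-14 and 4.4e-12). Fdps fell by less, from 5241 ± 90.9 to 3256 ± 97 (SD, n = 3 each, log2 fold change -0.69 ± 0.03), and so did Pmvk, from 345 ± 14.5 to 224 ± 8.78 (-0.62 ± 0.08), and Mvd, from 1205 ± 41.5 to 815 ± 25.3 (-0.56 ± 0.04).

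The 3 enzymes between farnesyl diphosphate and lanosterol fell by similar small steps. Sqle had 12196, 12074 and 12204 with vehicle, 8654, 8524 and 8431 with CCG-1423 and 12475, 12491 and 12624 with vismodegib, a narrow spread within each treatment. Its log2 fold change against vehicle was -0.51 ± 0.03, for Lss, at 1643 ± 64.5 and 1191 ± 63.1 (SD, n = 3 each), it was -0.46 ± 0.05, and for Fdft1, at 3214 ± 58.4 and 2466 ± 105, it was -0.38 ± 0.04 (adjusted p = 2.8e-11, 1.9e-07 and 7.8e-08).

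Enzymes from lanosterol to cholesterol ranged from a large fall in Nsdhl to a rise in Dhcr7. Nsdhl, which removes a C4 carboxyl group, had 1282, 1278 and 1236 with vehicle and 402, 415 and 448 with CCG-1423, with no overlap and a log2 fold change of -1.58 ± 0.05 (adjusted p = 9e-14). Hsd17b7, its partner in C4 demethylation, fell from 3351 ± 64.4 to 1778 ± 93.3 (SD, n = 3 each, -0.92 ± 0.04) and Ebp from 888 ± 24.3 to 529.9 ± 23.3 (-0.74 ± 0.05). Smaller falls were seen in Cyp51, from 6913 ± 189 to 5877 ± 169.9 (-0.23 ± 0.03), in Msmo1, from 5811 ± 53.1 to 5019.6 ± 31 (-0.21 ± 0.03), and in Sc5d, from 1436 ± 35.9 to 1271 ± 41.6 (-0.18 ± 0.04). Tm7sf2 had 38.4, 30.9 and 18.1 with vehicle and 22.3, 14.7 and 13.9 with CCG-1423, resting on 15 to 47 reads per library. Its groups overlapped, the log2 fold change was -0.71 ± 0.30 (adjusted p = 0.0363), and the call was lost in 7 of 17 alternatives, with adjusted p up to 0.176.

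Dhcr7, which reduces 7-dehydrocholesterol to cholesterol, went the other way from the other enzymes of its route. It had 1209, 1249 and 1269 with vehicle, 1756, 1830.0 and 1807 with CCG-1423 and 1184, 1205 and 1189 with vismodegib. The CCG-1423 values were all above the vehicle values, with a log2 fold change of 0.53 ± 0.04 (adjusted p = 1.8e-09).

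Among the regulators, the transcription factor genes fell and Insig1 rose. Srebf2 had 15577, 15404 and 15365 with vehicle and 12332, 11891 and 11798 with CCG-1423, a log2 fold change of -0.36 ± 0.03 (adjusted p = 4.8e-09), and Srebf1 fell by less, from 6278 ± 55.4 to 5412 ± 119 (SD, n = 3 each, -0.21 ± 0.03). Insig1 had 2098, 2173 and 2092 with vehicle and 2479.7, 2452 and 2458 with CCG-1423, a small rise without overlap (0.22 ± 0.04, adjusted p = 3.1e-05). Insig2 had 2144, 2134 and 2128 and 1949, 1877 and 1988, a small fall (-0.14 ± 0.03, adjusted p = 0.00132) whose call was lost in 1 alternative (adjusted p up to 0.0567). The ratio of Insig2 to Insig1 was 0.982 to 1.02 with vehicle, 0.765 to 0.809 with CCG-1423 and 0.885 to 0.978 with vismodegib, and these ranges did not overlap. Scap did not pass (-0.04 ± 0.03, adjusted p = 0.263). Stard4 fell from 1756 ± 47.4 to 1057 ± 72 (SD, n = 3 each, -0.73 ± 0.05).

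The fatty acid enzymes did not move together under CCG-1423. Fasn had 18456, 18449 and 20012 with vehicle, 27949, 26671 and 26604 with CCG-1423 and 20980.2, 20724 and 21138 with vismodegib. All CCG-1423 values lay above all others, a ratio of means of 1.43 to vehicle and a log2 fold change of 0.51 ± 0.04 (adjusted p = 1.2e-09). Acly, which supplies the acetyl-CoA, fell from 10848 ± 86.8 to 9478 ± 190.0 (SD, n = 3 each, -0.19 ± 0.03, adjusted p = 5.5e-06). Acaca, the step between them, had 5819.7, 6001 and 6482 with vehicle and 6463, 6059 and 5830.3 with CCG-1423, which overlap (0.00 ± 0.04, adjusted p = 0.929).

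Other gene groups were read in the same libraries, beside the 42.8% of all genes higher and 42.6% lower with CCG-1423. The summed level of 8 integrated stress response genes, led by Asns, Atf4 and Trib3, was 13842 to 14864 normalized counts with vehicle, 87102 to 94403 with CCG-1423 and 14276 to 15200 with vismodegib, and all 8 rose. The 8 proliferation genes rose as well, from 21088 to 22586 in sum to 34525 to 37617. The basal epithelial markers summed to 1187050 to 1209530 with vehicle and 227047 to 235623 with CCG-1423, with 5 of 6 lower and 1 higher. Sebaceous markers, led by Scd1, summed to 12819 to 13128 and 11120 to 11644, with 1 of 4 tested higher and 2 lower. Awat1 and Dgat2l6 were at 0 in every cell library. Adipocyte markers had low sums over 9 genes, 23.8 to 38.3 and 47.6 to 70.5, with Cfd and Cidec at 0. Only 1 of them was tested, and it was higher. Differentiated keratinocyte markers summed to 18827 to 20541 with vehicle and 5973 to 6453 with CCG-1423, with 6 of 7 tested lower. The part of these groups in the fall of the cholesterol genes was not tested. The share of reads at Rn45s, a ribosomal RNA precursor, was 5.81 to 6.70% with vehicle and 6.62 to 10.4% with CCG-1423.

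Vismodegib, compared with vehicle to see the response to a Smo inhibitor in this line, left the same genes close to their vehicle levels. It shares the vehicle libraries with the CCG-1423 comparison. All 26 log2 fold changes lay between -0.07 and 0.15, with a median of 0.06, beside 0.01 over all genes, and 23 of 26 were positive (88.5%), beside 55.7% of all genes. Of the 26 genes 2 rose and 0 fell, beside 1.58% of all genes higher and 3.92% lower. Fasn had a log2 fold change of 0.14 ± 0.04 (adjusted p = 0.026) and Mvk one of 0.15 ± 0.04 (adjusted p = 0.044), from the values given above, in which all vismodegib libraries exceeded all vehicle libraries. Both calls were lost when vismodegib library 1, 2 or 3 or vehicle library 1 or 2 was left out, and that of Mvk also without vehicle library 3, with adjusted p up to 0.157 for Fasn and 0.169 for Mvk.

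Further genes had groups that did not overlap but did not pass under vismodegib. In all, 14 genes were higher and 2 lower in every vismodegib library than in every vehicle library, beside 16% and 14% of all genes. Among them, Mvd had 1206, 1245 and 1162 with vehicle and 1349.8, 1310.2 and 1330.5 with vismodegib (0.14 ± 0.04, adjusted p = 0.0719), and Insig1 had 2365, 2203 and 2302 with vismodegib (0.11 ± 0.04, adjusted p = 0.0884). The share of reads at Rn45s was 1.39 to 1.58% with vismodegib, below the vehicle range, and it bears on the scale: when reads were scaled to their total in place of the deposited size factors, 17 of the 26 genes had an adjusted p below 0.05 as higher, with 2923 of all genes higher and 306 lower in place of 202 and 501. With Rn45s left out of that total 2 passed.

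**Figure D4:**
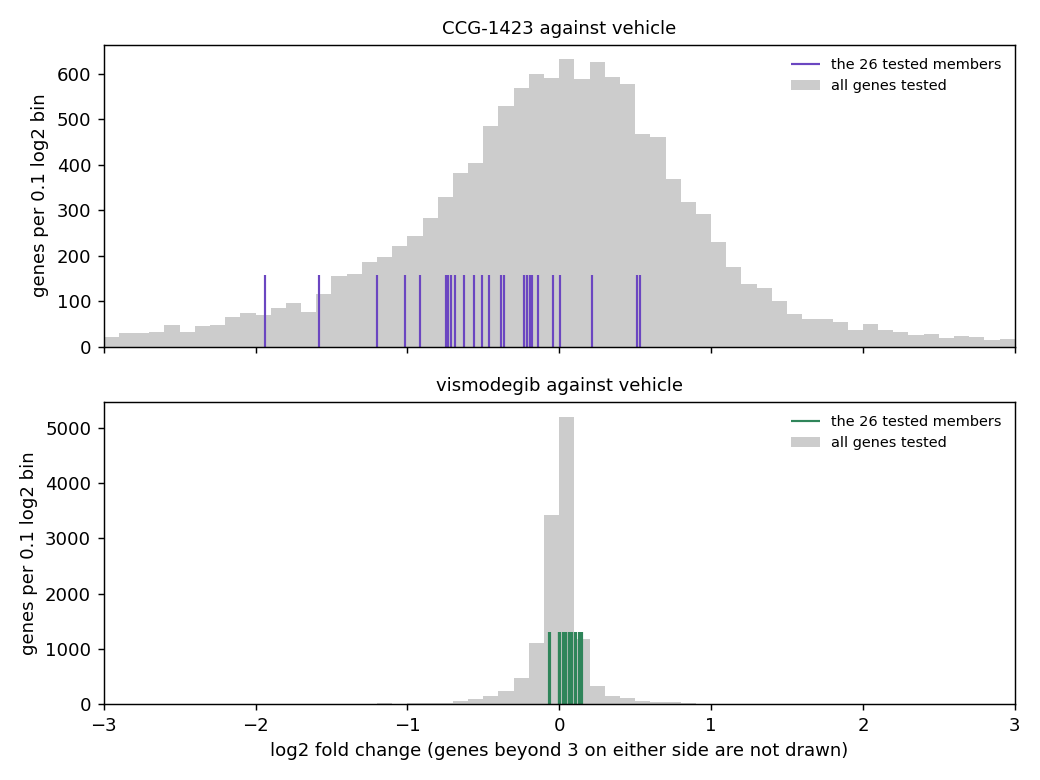
Number of genes per bin of 0.1 in log2 fold change over the 12775 genes tested in ASZ001 cells, for CCG-1423 (top) and vismodegib (bottom) against vehicle, with a vertical line at the value of each of the 26 genes. Under CCG-1423 22 of the 26 lines lie left of 0, from -1.94, and under vismodegib all lie between -0.07 and 0.15.

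Compared with vismodegib directly, CCG-1423 gave lower values for 23 of the 26 genes (88.5%) and higher values for Dhcr7, Fasn and Insig1, beside 42.4% of all genes lower and 42.4% higher. The groups did not overlap for 22 of the lower and all 3 of the higher genes, beside 42.5% and 42.6% of all genes. This comparison shares its libraries with the 2 before it. Mvk had a log2 fold change of -2.09 ± 0.04, Nsdhl -1.69 ± 0.05, Idi1 -1.13 ± 0.04 and Acat2 -1.01 ± 0.04. On the other side, Dhcr7 had 0.59 ± 0.04, Fasn 0.37 ± 0.04 and Insig1 0.11 ± 0.04. Scap (-0.13 ± 0.03, adjusted p = 0.00192) and Acaca (-0.13 ± 0.04, adjusted p = 0.0118), which did not pass against vehicle, were lower than with vismodegib. Some alternatives ended a call here: 6 for Tm7sf2, 3 for Insig1 and 2 for Acaca, with adjusted p up to 0.12, 0.158 and 0.151. The median log2 fold change was -0.50, beside 0.01 over all genes. The compounds differ in their targets, and without their doses this difference is one between the treatments as applied.

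The tumours and the cells, which share no libraries, can be read side by side. Of the 10 genes that were higher in resistant tumours without S4, 9 were lower with CCG-1423 in the cells, and 1, Insig1, was higher in both. Insig2 was lower in both. Most genes were called with CCG-1423, and 42.6% of all tested genes and 80.8% of the 26 were lower. A count of 9 of 10 is thus not far from the share of the 26 as a whole, and these shared counts have no test. Of the 15 that did not pass in the tumours, 11 were lower and 2 (Dhcr7 and Fasn) higher with CCG-1423. The size of the changes did not run in the same order. Mvk and Nsdhl, with the largest falls under CCG-1423, had tumour estimates of 0.41 ± 0.25 and 0.22 ± 0.25 that did not pass, and Sc5d, at 1.66 ± 0.24 in the tumours, had -0.18 ± 0.04 under CCG-1423.

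Related genes of lipid metabolism outside the 27 were examined from 4 lists, in each of which 0 genes passed with all 8 tumours. Their counts stand beside 20.6% of all genes higher and 19.4% lower in the tumours without S4, 42.8% and 42.6% with CCG-1423, and 1.58% and 3.92% with vismodegib. Among 16 further fatty acid genes, 4 rose and 4 fell without S4, 7 rose and 8 fell with CCG-1423, and 1 rose and 3 fell with vismodegib. The tumour shares (25% each way) and the CCG-1423 shares (43.8% higher and 50% lower) were near those of all genes. Fads2, which desaturates polyunsaturated fatty acids, rose in the tumours without S4 from 331 ± 148 (SD, n = 3) to 2636 ± 1282 (SD, n = 4) (2.96 ± 0.39) and fell with vismodegib (-0.28 ± 0.03). Scd2, a stearoyl-CoA desaturase, rose in the tumours (1.12 ± 0.14) and fell with CCG-1423 from 86777 ± 647 to 31307 ± 2526 (SD, n = 3 each, -1.47 ± 0.05). Gpam, which starts glycerolipid synthesis, fell in the tumours (-1.64 ± 0.18). The citrate carrier Slc25a1 fell with CCG-1423 (-1.16 ± 0.04), while Mid1ip1, which activates acetyl-CoA carboxylase, rose from 975 ± 18.3 to 2757 ± 51.7 (SD, n = 3 each). Fads1 and Fads3 fell with vismodegib (-0.23 ± 0.03 and -0.22 ± 0.03).

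Of 9 genes that process SREBP or degrade sterol-regulated proteins, 2 rose and 0 fell in the tumours without S4 (Ubxn8 at 1.32 ± 0.21 and Aup1 at 0.58 ± 0.15), 4 rose and 4 fell with CCG-1423, and 0 passed with vismodegib. The share higher in the tumours (22.2%) and both CCG-1423 shares (44.4%) were near those of all genes. Mbtps1, the protease that makes the first cut in SREBP, had 7955 ± 209 with vehicle and 3634 ± 62.7 with CCG-1423 (SD, n = 3 each), a log2 fold change of -1.13 ± 0.03. Erlin1 and Erlin2, which form a complex in the endoplasmic reticulum membrane, went in opposite directions (1.17 ± 0.03 and -0.81 ± 0.05).

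Among 12 genes of sterol storage, trafficking and efflux, 7 rose and 4 fell with CCG-1423, or 58.3% and 33.3%, with a median log2 fold change of 0.35, beside 0.00 over all genes. Npc1, which exports cholesterol from lysosomes, rose from 2048 ± 59 to 3914 ± 33.8 (SD, n = 3 each, 0.93 ± 0.03). The efflux pump gene Abcg1 rose from 1552 ± 25 to 3558 ± 231 (1.19 ± 0.04), and Mylip, an LXR target that marks lipoprotein receptors for degradation, fell (-0.55 ± 0.04). Without S4, 3 of the 12 were higher (25%) and 2 lower (16.7%) in resistant tumours, near the shares of all genes, among them Npc2 (0.88 ± 0.15) higher and Abca1 (-1.96 ± 0.36) and Mylip (-1.36 ± 0.19) lower. With vismodegib 1 was higher, Mylip (0.14 ± 0.04), and 2 lower, the lipoprotein receptor Scarb1 (-0.38 ± 0.03) and the efflux pump Abca1 (-0.29 ± 0.05).

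Of 12 genes in the isoprenoid branches that leave the route at or before farnesyl diphosphate, 4 rose and 2 fell in the tumours without S4, 6 rose and 3 fell with CCG-1423, and 2 rose and 0 fell with vismodegib. These are 33.3% higher and 16.7% lower in the tumours and 50% higher and 25% lower with CCG-1423. Rabggtb, a subunit of the transferase that prenylates Rab proteins, rose with CCG-1423 from 918 ± 8.73 to 3205 ± 319 (SD, n = 3 each, 1.80 ± 0.06), and its partner Rabggta rose there (0.93 ± 0.07), with vismodegib (0.29 ± 0.07) and in the tumours (1.31 ± 0.24). Fntb, the farnesyltransferase subunit, rose in the tumours (1.71 ± 0.22) and Dhdds, a dolichol synthesis enzyme, fell there (-1.02 ± 0.16) and rose with vismodegib (0.15 ± 0.04).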

How the data were processed

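Gene expression in 17 RNA libraries was read from 2 tables, 1 for the 8 tumours and 1 for the 9 cell libraries, which were normalized separately and were tested only within a table. The 8 exome samples of the series were not analysed here. The signal values deposited by the authors are read counts per gene divided by 1 size factor per library. Per the submitters' processing notes, TopHat, DESeq and the genome mm9 had a place in this, with neither role nor version stated. For the gene counter, annotation and strandedness nothing is stated (not given in the sources used here). Whole reads were recovered from the step size of each library, with 100% of values whole within 0.01 read. A value of 0 stands for 0 reads counted, while the expected count behind it may still be up to 3 reads. That bound equals between 2.09 and 4.97 normalized counts for tumours and between 2.45 and 3.4 for cells. It covers counting error alone.

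After log2(normalized count + 1), groups were compared by limma 3.58.1 (R 4.3.3) with a variance trend, 2-sided, with Benjamini-Hochberg adjustment over all genes with a value of at least 10 in at least 4 tumour libraries (3 without the sensitive tumour S4, which stood apart) or 3 cell libraries. Fold changes on this scale understate the change of low genes. The 9 cell libraries shared 1 fit. On the recovered reads, edgeR 4.0.16 called 0 genes in the 8 tumours, 3124 higher and 2962 lower without S4, 5444 and 5494 with CCG-1423, and 208 and 531 with vismodegib. DESeq2 1.42.0, other pseudocounts, filters and scalings, a replicate block and leaving out each library were alternatives, and scaling without Rn45s was added after the data were seen. The steps were tested on simulated data.

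The counts in each comparison cover all 26 tested genes, passing or not, while the text prints values for the genes it names there. From the 4 related lists up to 3 passing genes of smallest p per comparison are named, and from marker lists the summed level. The genes, the lists and the markers were chosen with earlier results of these data known. Promoters were matched by symbol and the motifs searched on both strands.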

Additional observations from a re-analysis of the deposited data

Results flagged for a closer look

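Within the 4 sensitive tumours, 10 of the 26 genes had 1 library far from the others, in that its gap to the nearest of them exceeded Dixon's 95% critical share of the whole range for 4 samples. In all 10 this was the sensitive tumour called S4, as the highest. A total of 52 groups of 4 tumours were examined, and among independent groups chance flags about 1 in 20. The 52 are 26 genes read in the same tumours, so the 10 flags are not independent and all fall on 1 library. The share flagged over all genes was not computed.

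In the mevalonate steps, S4 had 336.5 normalized counts of Pmvk (170.6 to 173.8 in the other 3), 288.9 of Mvd (36.74 to 70.21), 724.7 of Idi1 (155.7 to 225.6) and 966.9 of Fdps (217.5 to 275.5). In the squalene and sterol steps it had 1822 of Fdft1 (683.8 to 715.4), 2013 of Sqle (432.3 to 541), 615.2 of Msmo1 (280.9 to 306.6), 977.1 of Nsdhl (377.6 to 477.7) and 510.8 of Sc5d (154 to 198). Among the fatty acid enzymes it had 3777 of Acaca (1822 to 2050). The same library stood with the resistant tumours across all genes.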

How the results depend on the processing

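With all 8 tumours, DESeq2 gave 1 gene lower and leaving out each tumour gave 0 to 10 higher and 0 to 1 lower, the upper ends without S4, while the other settings gave 0 and 0. Over all genes the calls there were 5 higher and 12 lower, between 0 and 15 in other limma and edgeR settings, and 515 and 1117 by DESeq2. Without S4, leaving out each further tumour gave 6 to 11 higher and 1 to 2 lower (2018 to 3138 and 1841 to 3106 over all genes), and total-read scaling, with or without Rn45s, and quantile normalization gave 2 lower. With vismodegib the higher count was 1 without a filter, 17 under total-read scaling, 0 under quantile normalization and 0 to 2 leaving out each library (66 to 128 higher and 259 to 370 lower over all genes). With CCG-1423 3 were higher in every setting, and 19 to 21 lower.

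Deviations of same-numbered tumours correlated at -0.146 to 0.122, and those of differently numbered ones at -0.162 to 0.203. For cell libraries the ranges were -0.0427 to 0.0368 and -0.0498 to 0.0496. Same-numbered samples were thus no more alike than others. Few pairs share a number and the sensitive tumours were centred on a mean that includes S4, so a pairing is not excluded. A replicate block gave 11 higher and 1 lower without S4 (Srebf2 added), 3 and 21 with CCG-1423, and 1 and 0 with vismodegib (Mvk lost).

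Uncalled genes near 0 changed sign. With all 8 tumours the log2 fold change of Acat2 was -0.099 under total-read scaling, -0.077 without Rn45s, -0.029 under quantile normalization, -0.020 and -0.019 by edgeR with TMM and RLE factors and -0.021 by DESeq2. Stard4 was -0.051 and -0.029 under total-read scaling with and without Rn45s. Leaving out each tumour, Acat2 ran from -0.11 to 0.18, Stard4 from -0.13 to 0.30, Fasn from -0.17 to 0.12, Pmvk from -0.16 to 0.17 and Nsdhl from -0.24 to 0.22. Without S4, Fasn was -0.019 and -0.0044 under total-read scaling and quantile normalization and ran from -0.026 to 0.26, and Ebp from -0.20 to 0.070. With CCG-1423, Acaca was -0.0032 by edgeR TMM and ran from -0.036 to 0.049, and Scap was 0.026 under total-read scaling without Rn45s. With vismodegib, total-read scaling gave 0.079 for Acat2 (0.0066 without Rn45s), 0.014 for Idi1 and 0.024 for Dhcr7. Tm7sf2 was -0.071, -0.068 and -0.039 by edgeR TMM, edgeR RLE and DESeq2, and Insig2 -0.0016 by edgeR TMM. Leaving out each library, Acat2 ran from -0.021 to 0.018, Tm7sf2 from -0.27 to 0.25, Sc5d from -0.013 to 0.046 and Insig2 from -0.0082 to 0.017. The cause of these moves was not tested. Tumour depth, down to 8111252 reads, and the 15 to 47 reads of Tm7sf2 in cells limit precision.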
